A study of Mus musculus with 18 samples.

Results

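Hepatocytes take up and release amino acids through carriers of the solute carrier (SLC) superfamily. This account follows 7 of its families (Slc1, Slc3, Slc6, Slc7, Slc36, Slc38 and Slc43) across the liver lobule and across fasting in mice. Members were found by symbol: every Ensembl gene of the count table whose mouse symbol belongs to one of these families, leaving out Slc1a2 and pseudogene symbols. The rule gave 63 of 28030 genes, of which 21 were Slc6, 16 Slc7, 11 Slc38, 6 Slc1, 4 Slc36, 3 Slc43 and 2 Slc3 genes. Of the 63 members, 32 passed the filter on low counts and were tested, among 12477 genes in all.

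The libraries came from wild-type C57BL/6J male mice aged 12 weeks on normal chow. Their hepatocytes were isolated with digitonin, a detergent, from the pericentral side of the lobule (around the vein where blood leaves) or the periportal side (where blood enters). All mice had been trained for 3 days to fast 16 h overnight and feed 8 h in daytime, and were then given food and water with 20% sucrose. Each zone was sampled in fed mice killed at clock hour 13 after 4 h of feeding, in mice fasted 8 h and killed at clock hour 21, and in mice fasted 24 h and killed at clock hour 13 the next day. This gave 6 groups of 3 libraries, all without any transgene. Fasting of 8 h and the change in clock hour cannot be told apart. The same holds for the step from 8 h to 24 h of fasting, over which the clock hour also changed. The labels do not say whether replicates are separate mice or whether the zones of a replicate number share a mouse, so p-values measure the spread between these libraries only.

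Amino acid carriers differ in substrate, driving force and place. System A carriers (Slc38a1, Slc38a2 and Slc38a4) bring in small neutral amino acids with sodium, the system N carrier Slc38a3 moves glutamine in either direction, and cationic amino acid transporters (Slc7a1 and Slc7a2) carry arginine and lysine. The Slc7 light chains such as Slc7a5 work only when bound to a heavy chain of the Slc3 family, and the Slc6 family carries neurotransmitters, osmolytes and creatine as well as amino acids. In the liver, amino acids feed glucose and urea synthesis mainly on the periportal side, and glutamine is made in the cells nearest the central vein.

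The families are named for transport across the plasma membrane, and the rule takes in some genes that this name does not describe. Slc38a9, Slc38a7 and Slc36a1 are known chiefly from lysosomes, Slc6a8 carries creatine, Slc43a3 carries purine bases, and Slc7a6os is not a transporter but a separate gene beside Slc7a6. These are described under their own names.

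Each library held 1.84e+07 to 2.64e+07 estimated counts in total. The zone labels were checked on 8 markers each. All 8 pericentral markers were lower in periportal hepatocytes in the fed state and after 8 h, and 7 after 24 h (not Glul, glutamine synthetase). Of the periportal markers, 6, 6 and 5 were higher. Markers of other cells were present at low levels: summed over 8 sinusoidal endothelial markers they came to 3.59 to 15.5 CPM in fed libraries and up to 44.2 CPM in periportal 8 h replicate 3, over 8 Kupffer cell and leukocyte markers to 0.558 to 21.9 CPM, over 8 stellate cell markers to 1.60 to 22.6 CPM and over 6 cholangiocyte markers to 19.3 to 56.7 CPM, with the cholangiocyte marker Epcam at 0 in every group. CPM are counts scaled to a common library total after TMM, a method that evens out differences in library composition. Averaged over states, 6 of 7 endothelial markers tested and 5 of 8 Kupffer cell and leukocyte markers were higher in periportal libraries, as were 2 of 3 cholangiocyte markers (Sox9 and Spp1) and 2 of 5 red cell markers (Hba-a1 and Hbb-bs). Pericentral 24 h replicate 2 stood apart with low Glul and high Sds, and periportal 8 h replicate 1 with a lower sum of periportal markers (14100.4 CPM) than replicates 2 and 3 (25086 and 23518 CPM). Several results are given with and without these libraries.

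The 31 members that were not tested reached at most 0.533 CPM (Slc6a11) and at most 13 counts (Slc6a4) in any library. Slc7a12, Slc6a5, Slc36a3 and Slc6a21 had no count in any library. Among the rest were carriers typical of kidney and intestine, such as Slc6a19 (at most 3 counts) and Slc7a9 (at most 2 counts), brain neurotransmitter carriers such as Slc6a3 (at most 1 count), and the cystine carrier Slc7a11 (at most 10 counts, 0.419 CPM). The 31 members below the filter had no test in the main fit, and low counts do not show that the genes are silent. Slc6a4 had 1, 0 and 1 counts in fed and 7, 8 and 13 counts in 8 h pericentral libraries. With no low-count filter, the comparison of 8 h with fed in pericentral hepatocytes called 4 members in place of 3.

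Levels were compared between genes per kilobase of the longest coding transcript. In fed pericentral hepatocytes Slc6a13, a carrier of gamma-aminobutyric acid, taurine and betaine, stood first at 90.0 CPM per kb. It was followed by the glutamine carrier Slc38a3 at 41.3, the betaine carrier Slc6a12 at 32.6, Slc38a10 at 23.8 and the arginine and lysine carrier Slc7a2 at 20.2 CPM per kb. After 24 h of fasting Slc7a2 stood first in both zones, at 149 CPM per kb in pericentral and 170 CPM per kb in periportal hepatocytes, against 106 and 137 CPM per kb for Slc6a13. Slc7a2 was also above Slc6a13 at 24 h when merged exon length was used (129 against 81.3 CPM per kb in pericentral hepatocytes), although in fed pericentral hepatocytes Slc6a12 then stood above Slc38a3 and Slc7a2 above Slc38a10. The summed level of the tested members per kilobase was 308 to 340 in fed and 472 to 524 in 24 h pericentral libraries, and Slc7a2 held 5.18% to 7.63% and 28.9% to 30.9% of it. In periportal libraries its share was 6.85% to 10.3% in the fed state and 23.5% to 32.3% at 24 h, with no overlap between the states in either zone.

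**Figure D1:**
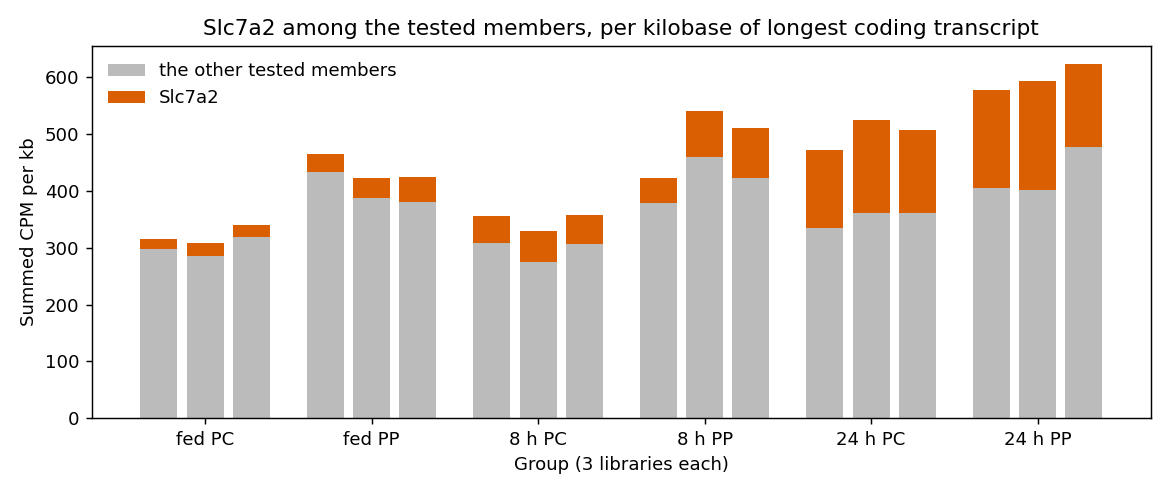
Summed CPM per kb (linear axis) of the 32 tested members in each of the 18 libraries, 3 bars per group, split into Slc7a2 and the other tested members. The Slc7a2 portion is 5.18% to 10.3% of the bar in fed libraries and 23.5% to 32.3% after 24 h.

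Slc7a2 (ENSMUSG00000031596; GRCm38 chromosome 8, 40862396 to 40922308, plus strand) encodes a cationic amino acid transporter that supplies arginine, lysine and ornithine. Fed pericentral libraries had 129, 186 and 164 CPM and fed periportal libraries 252, 281 and 345 CPM. After 8 h the values were 376, 438 and 418 CPM in pericentral and 349, 647 and 688 CPM in periportal libraries. After 24 h they were 1091, 1279.7 and 1160.2 CPM in pericentral and 1368, 1515 and 1158 CPM in periportal libraries. Within each zone the 3 states did not overlap, and every fasted library was above every fed library of its zone. By edgeR's quasi-likelihood test the log2 fold change from fed to 24 h was 2.88 (SE 0.22, adjusted p = 6.8e-07), a 7.37-fold rise, in pericentral hepatocytes and 2.20 (SE 0.22, adjusted p = 7.57e-06), a 4.61-fold rise, in periportal hepatocytes. At 8 h it had risen by 1.36 on the pericentral side (SE 0.21, adjusted p = 0.000342) and by 0.94 on the periportal side (SE 0.21, adjusted p = 0.00608), and from 8 h to 24 h the rises were 1.52 and 1.26 (adjusted p = 0.000515 and 0.0022). The 8 h rise in periportal hepatocytes had an adjusted p of 0.0608 when only the groups compared were fitted.

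Slc7a2 was also 1.83-fold higher on the periportal side in fed mice (log2 0.87, SE 0.21, adjusted p = 0.0141), with no overlap between the zones. That call was lost without fed pericentral replicate 1 or fed periportal replicate 3 (log2 0.73 in either case). After 8 h the excess was 0.45 (SE 0.21, adjusted p = 0.222), or 0.69 (adjusted p = 0.0126) without periportal replicate 1, and after 24 h it was 0.19 (SE 0.21, adjusted p = 0.71). The test of whether the 24 h rise differed between zones gave −0.68 (SE 0.29, adjusted p = 0.6), so no difference was called. The gene shares 635 exon bases on the opposite strand with Gm26584, and strand was not stated for the counting. Slc7a1, the more widely expressed cationic transporter, lay between 0.547 and 1.86 CPM in all libraries and was not called in any contrast.

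**Figure D2:**
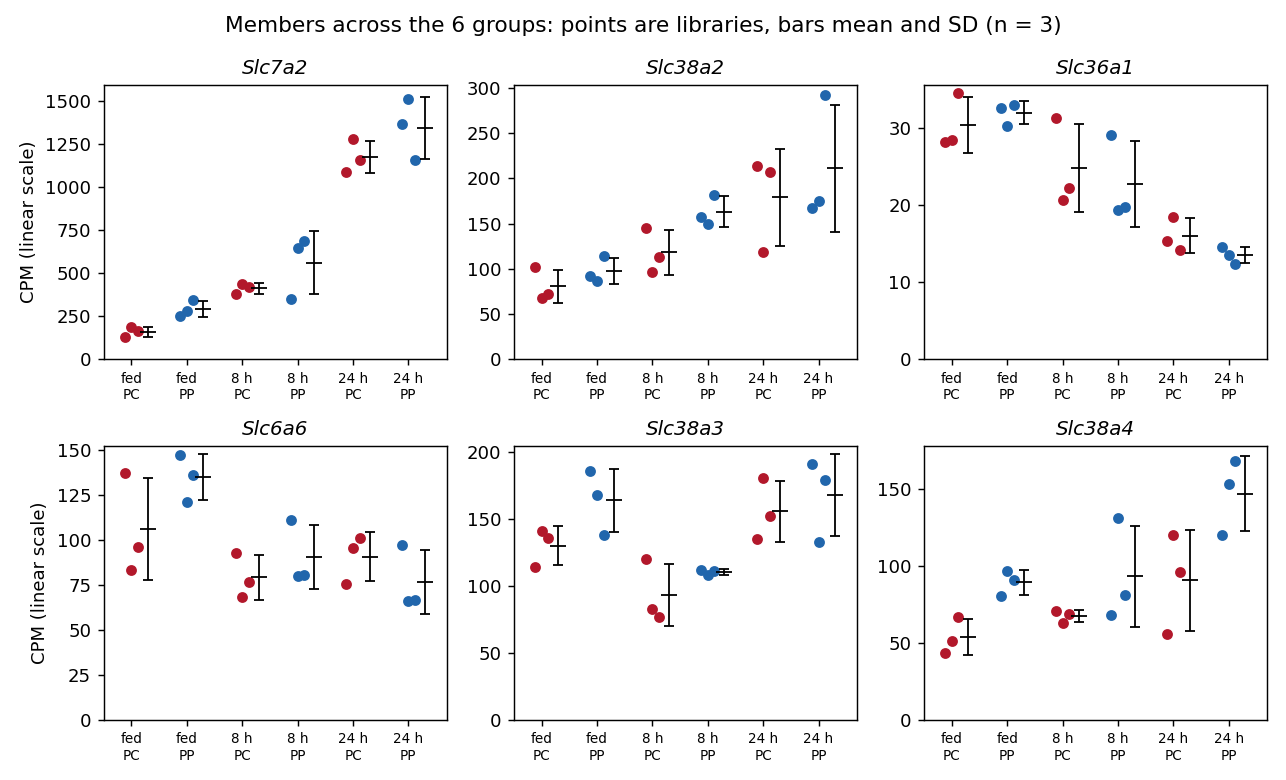
CPM (linear axes) of 6 members in each group of 3 libraries; points are libraries (red pericentral, blue periportal), with the mean and SD beside them. Slc7a2 rises at each step in both zones, Slc38a2 is higher and Slc36a1 lower at 24 h than in the fed state in both zones, and Slc38a3 is lowest at 8 h.

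By number, the 32 tested members were called about as often as all tested genes when fasting for 24 h was compared with the fed state. In pericentral hepatocytes 7 were called (3 higher, 4 lower), or 21.9%, against 21.8% of all genes tested. In periportal hepatocytes 6 were called (4 higher, 2 lower), or 18.8%, against 19.6% of all genes. The median log2 fold change of the members was 0.07 in pericentral hepatocytes, against 0.01 for all genes, and 0.03 in periportal hepatocytes. At 8 h 3 members were called in each zone, against 13.8% of all genes in pericentral and 14.4% in periportal hepatocytes. From 8 h to 24 h 4 members were called in pericentral (background 9.71% of genes) and 3 in periportal hepatocytes (background 7.46%).

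The periportal 8 h comparison depended on replicate 1. Without that library 5 members were called, with the rise of Slc38a6 and the fall of Slc38a3 no longer among them. Slc36a1 was then lower (log2 −0.71, adjusted p = 0.00971, against −0.49 and 0.0609 with all libraries), as was the taurine carrier Slc6a6 (−0.75, adjusted p = 0.0338, against −0.58 and 0.0671). The betaine carrier Slc6a12 was then higher (0.47, adjusted p = 0.0446, against 0.28 and 0.279), and so was Slc43a1 (1.20, adjusted p = 0.0225, against 0.90 and 0.099).

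Among the system A carriers, Slc38a2 (ENSMUSG00000022462), which takes up alanine and other small neutral amino acids, rose in both zones. Fed pericentral libraries had 102, 67.7 and 72.4 CPM and 24 h libraries 214, 118 and 207 CPM, a log2 change of 1.15 (SE 0.25, adjusted p = 0.00442 by edgeR). Fed periportal libraries had 91.4, 86.9 and 114 CPM and 24 h libraries 167, 175 and 292 CPM, a log2 change of 1.12 (SE 0.25, adjusted p = 0.00626). The states did not overlap in either zone, and the lowest 24 h value, 118 CPM, belonged to pericentral replicate 2. At 8 h the values were 145, 96.5 and 113 CPM in pericentral and 157, 149.8 and 182 CPM in periportal libraries. The 8 h change of 0.74 in periportal hepatocytes had an adjusted p of 0.0618, and that of 0.55 in pericentral hepatocytes 0.172.

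Slc38a4 (ENSMUSG00000022464), a hepatic system A carrier, was called in the main fit only by zone, averaged over states. It had 43.4, 51.1 and 67.0 CPM in fed pericentral and 80.5, 96.8 and 90.7 CPM in fed periportal libraries. After 8 h it had 70.5, 63.2 and 68.8 CPM and 68.3, 131 and 81.3 CPM, and after 24 h 55.7, 120.0 and 95.9 CPM and 119.8, 153 and 168 CPM. Averaged over states it was 1.55-fold higher on the periportal side (log2 0.63, SE 0.15, adjusted p = 0.00741), while no single state passed the threshold. The zones did not overlap in the fed state. They overlapped after 8 h and, by pericentral replicate 2 against periportal replicate 1 alone, after 24 h. Its 24 h changes of 0.75 and 0.72 had adjusted p-values of 0.054 in pericentral and 0.0679 in periportal hepatocytes. Without pericentral 24 h replicate 2 the former was 0.49 (adjusted p = 0.234). The third system A gene, Slc38a1, had group means of 0.896 to 1.25 CPM with no call.

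Slc38a3 (ENSMUSG00000010064), the glutamine carrier of system N, dipped at 8 h. Fed periportal libraries had 186, 168 and 138 CPM, the 8 h libraries 112, 108 and 111 CPM, and the 24 h libraries 191, 133 and 179 CPM. The fall at 8 h was called (log2 −0.57, SE 0.17, adjusted p = 0.0332), as was the rise from 8 h to 24 h (0.60, SE 0.17, adjusted p = 0.0417), and all 8 h libraries lay below all others of the zone. In pericentral libraries the values were 114, 141 and 136 CPM fed, then 120.2, 82.8 and 76.8 CPM (8 h) and 135, 180.4 and 152 CPM (24 h). There the rise from 8 h to 24 h was called (0.74, SE 0.17, adjusted p = 0.0126) and the fall at 8 h was not (−0.48, adjusted p = 0.0725). The periportal 8 h call was lost without fed replicate 1 or 2 or any of the 8 h replicates (log2 −0.47 to −0.58), and the pericentral rise without 24 h replicate 2 (0.62, adjusted p = 0.0576) or without 8 h replicate 2 or 3. The call of the pericentral rise was also lost when only the groups compared were fitted (0.75). The periportal rise was lost in 9 of 24 settings.

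Slc38a6 (ENSMUSG00000044712), a less studied member, had 24.1, 25.6 and 20.7 CPM in fed periportal and 41.9, 27.9 and 33.3 CPM in 8 h periportal libraries, without overlap. This change of 0.55 (SE 0.16, adjusted p = 0.0298) was lost when any of 4 libraries was left out, fed replicate 1 or 3 or 8 h replicate 1 or 3. The call of Slc38a6 was also lost when only the groups compared were fitted. At 24 h it had 32.6, 24.6 and 35.6 CPM in periportal libraries, and the pericentral libraries held 32.5, 27.6 and 29.6 CPM fed, then 33.9, 32.3 and 34.8 CPM (8 h) and 38.4, 27.0 and 35.7 CPM (24 h). Slc38a10 (group means 102 to 112 CPM) and the lysosomal arginine sensor Slc38a9 (7.29 to 8.82 CPM) had no call. Their 24 h log2 changes were −0.10 (SE 0.12) and −0.13 (SE 0.11) in pericentral and 0.04 (SE 0.12) and 0.19 (SE 0.11) in periportal hepatocytes. Slc38a7, a lysosomal glutamine carrier, had group means of 0.422 to 1.75 CPM (single libraries 0 to 2.24 CPM) and was not called.

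Slc36a1 (ENSMUSG00000020261), a proton-coupled carrier of small amino acids, fell in both zones. Fed pericentral libraries had 28.2, 28.4 and 34.5 CPM, the 8 h libraries 31.3, 20.7 and 22.2 CPM and the 24 h libraries 15.3, 18.5 and 14.1 CPM. Fed periportal libraries had 32.6, 30.3 and 33.0 CPM, the 8 h libraries 29.1, 19.3 and 19.7 CPM and the 24 h libraries 14.5, 13.5 and 12.4 CPM. All 24 h libraries lay below all others of their zone. The log2 change at 24 h was −0.92 (SE 0.17, adjusted p = 0.00113) in pericentral and −1.25 (SE 0.17, adjusted p = 0.00013) in periportal hepatocytes, and the change from 8 h to 24 h was −0.63 and −0.76 (adjusted p = 0.0286 and 0.0153). These last calls were lost without 8 h replicate 1 or 24 h replicate 1 or 3 on the pericentral side, and without 8 h replicate 1 or 24 h replicate 2 or 3 on the periportal side. The zones did not differ in any state by the test, with a zone difference of −0.10 (SE 0.10) averaged over states. Its relative Slc36a4 had 7.05 to 9.48 CPM as group means and no call.

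For Slc38a2 and Slc36a1, which moved in opposite directions in both zones at 24 h, the 250 bases before the RefSeq start site and the 4 bases from it on are printed from RefSeq promoters of build GRCm38.p6, 5′ to 3′ on the gene's strand. Slc38a2 lies at chr15:96699725-96699978 (minus strand) and Slc36a1 at chr11:55204090-55204343 (plus strand).
Slc38a2: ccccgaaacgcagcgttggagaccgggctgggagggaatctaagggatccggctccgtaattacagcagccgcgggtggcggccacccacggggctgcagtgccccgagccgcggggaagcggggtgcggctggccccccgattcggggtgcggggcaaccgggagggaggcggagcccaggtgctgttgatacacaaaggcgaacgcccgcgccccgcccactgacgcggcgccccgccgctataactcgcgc
Slc36a1: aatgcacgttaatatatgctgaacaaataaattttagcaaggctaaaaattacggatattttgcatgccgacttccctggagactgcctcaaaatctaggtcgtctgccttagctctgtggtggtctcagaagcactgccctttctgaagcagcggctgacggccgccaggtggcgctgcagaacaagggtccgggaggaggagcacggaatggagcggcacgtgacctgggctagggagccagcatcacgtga
Both are in lower case throughout because neither holds any of the 3 motifs searched on both strands: TGATGNAA, the composite element bound by ATF4, TGACGTCA, the cyclic AMP response element, and GTAAACA, of the FOXO and FOXA type. In the Slc38a2 stretch G and C make up 72.0% of the bases before the start, with 30 CG pairs, and in the Slc36a1 stretch 53.2%, with 12 CG pairs. The medians over 32851 RefSeq promoters are 52.4% and 6 pairs. The absence of these letters says nothing about the factors.

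The Slc6 carriers of osmolytes and creatine spanned a wide range of levels. Slc6a6 (ENSMUSG00000030096), the taurine carrier, had 147, 121 and 136 CPM in fed, 111, 79.7 and 80.5 CPM in 8 h and 97.0, 66.3 and 66.6 CPM in 24 h periportal libraries. The 24 h fall was called (log2 −0.82, SE 0.20, adjusted p = 0.00987), with no overlap with the fed libraries. It had an adjusted p of 0.0504 without 24 h periportal replicate 3. In pericentral libraries it had 137, 83.3 and 96.1 CPM fed, then 92.6, 68.1 and 76.8 CPM (8 h) and 75.4, 95.5 and 101 CPM (24 h), which overlapped (log2 −0.22, SE 0.20, adjusted p = 0.485). The difference between the zones in the 24 h change was −0.60 (SE 0.28, adjusted p = 0.649) and was not called.

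Slc6a8 (ENSMUSG00000019558), the creatine carrier, combined a zone difference with a rise on the pericentral side. Fed pericentral libraries had 3.21, 2.24 and 3.43 CPM and fed periportal libraries 9.49, 8.55 and 8.01 CPM, a log2 difference of 1.55 (SE 0.25, adjusted p = 0.000687) that did not overlap. Pericentral libraries had 9.26, 4.14 and 6.19 CPM at 8 h (1.14, SE 0.25, adjusted p = 0.00508 against fed) and 8.01, 7.21 and 5.19 CPM at 24 h (1.20, SE 0.25, adjusted p = 0.00246), all above the fed libraries. Periportal libraries had 13.5, 10.6 and 9.74 CPM (8 h) and 11.7, 10.4 and 10.9 CPM (24 h), changes of 0.38 and 0.34 that were not called. The fitted excess on the periportal side was 0.79 after 8 h (SE 0.24, adjusted p = 0.0537) and 0.68 after 24 h (SE 0.24, adjusted p = 0.127). The test of a different 24 h change in the zones gave −0.86 (SE 0.34, adjusted p = 0.556).

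Slc6a13 (ENSMUSG00000030108) had 202, 191 and 209 CPM in fed pericentral and 378, 291 and 294 CPM in fed periportal libraries, which did not overlap (log2 0.68, SE 0.15, adjusted p = 0.0074). After 8 h it had 166, 191 and 247 CPM against 278, 329.8 and 322 CPM, also without overlap (0.62, SE 0.15, adjusted p = 0.0139). After 24 h it had 206, 264 and 237 CPM against 272, 314 and 329 CPM, again without overlap, but the difference of 0.37 fell short of the threshold (SE 0.15, adjusted p = 0.193). In fed mice the call disappeared without fed periportal replicate 1 (0.54, adjusted p = 0.0517), and the 8 h call without pericentral replicate 1 or 2 or periportal replicate 2 or 3 (0.50 to 0.60). The 8 h call was also lost when only the groups compared were fitted (0.62). No fasting contrast called it. Its neighbour Slc6a12, 5343 bases away on the same strand of chromosome 6, had group means of 63.8 to 86.2 CPM and was not called by zone or by state with all libraries, with an averaged zone difference of −0.13 (SE 0.09) against 0.56 (SE 0.08) for Slc6a13. The glycine carrier Slc6a9 had group means of 40.6 to 64.2 CPM and no call. Its 24 h pericentral libraries (69.8, 61.9 and 60.8 CPM) lay above all fed and 8 h libraries of that zone. The change from 8 h to 24 h there was 0.66 (adjusted p = 0.053 by edgeR) and was called in 9 of 24 alternative settings. Slc6a9 shares 1429 of its 5141 exon bases with Ccdc24 on the opposite strand. Slc6a16 stayed below 1 CPM in every library.

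The comparison of zones called 8 members in fed mice (4 higher and 4 lower on the periportal side), or 25% of those tested, against 8.01% of all genes. After 8 h it called 6 (2 higher, 4 lower; 18.8%), against 7.14% of all genes, and after 24 h it called 2 (1 higher, 1 lower), against 4.17%. Averaged over states 10 members were called (6 higher, 4 lower), against 20.3% of all genes. The fed, 8 h and averaged counts include Slc38a11, which passed the filter on low counts through its pericentral libraries alone. The medians of the members were 0.02, 0.17 and −0.03 in the fed state, at 8 h and at 24 h, near the 0.00, 0.01 and 0.00 of all genes. The 24 h count was 0 when pericentral replicate 1, pericentral replicate 3 or periportal replicate 3 was left out, 1 without periportal replicate 1 or 2, and 3 without pericentral replicate 2. In these bulk libraries fewer cells that express a gene and less of its RNA per cell cannot be told apart. Whether the RNA of endothelial cells, Kupffer cells, cholangiocytes or red cells, which had markers that were higher in periportal libraries, takes part in any of these differences was not tested.

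**Figure D3:**
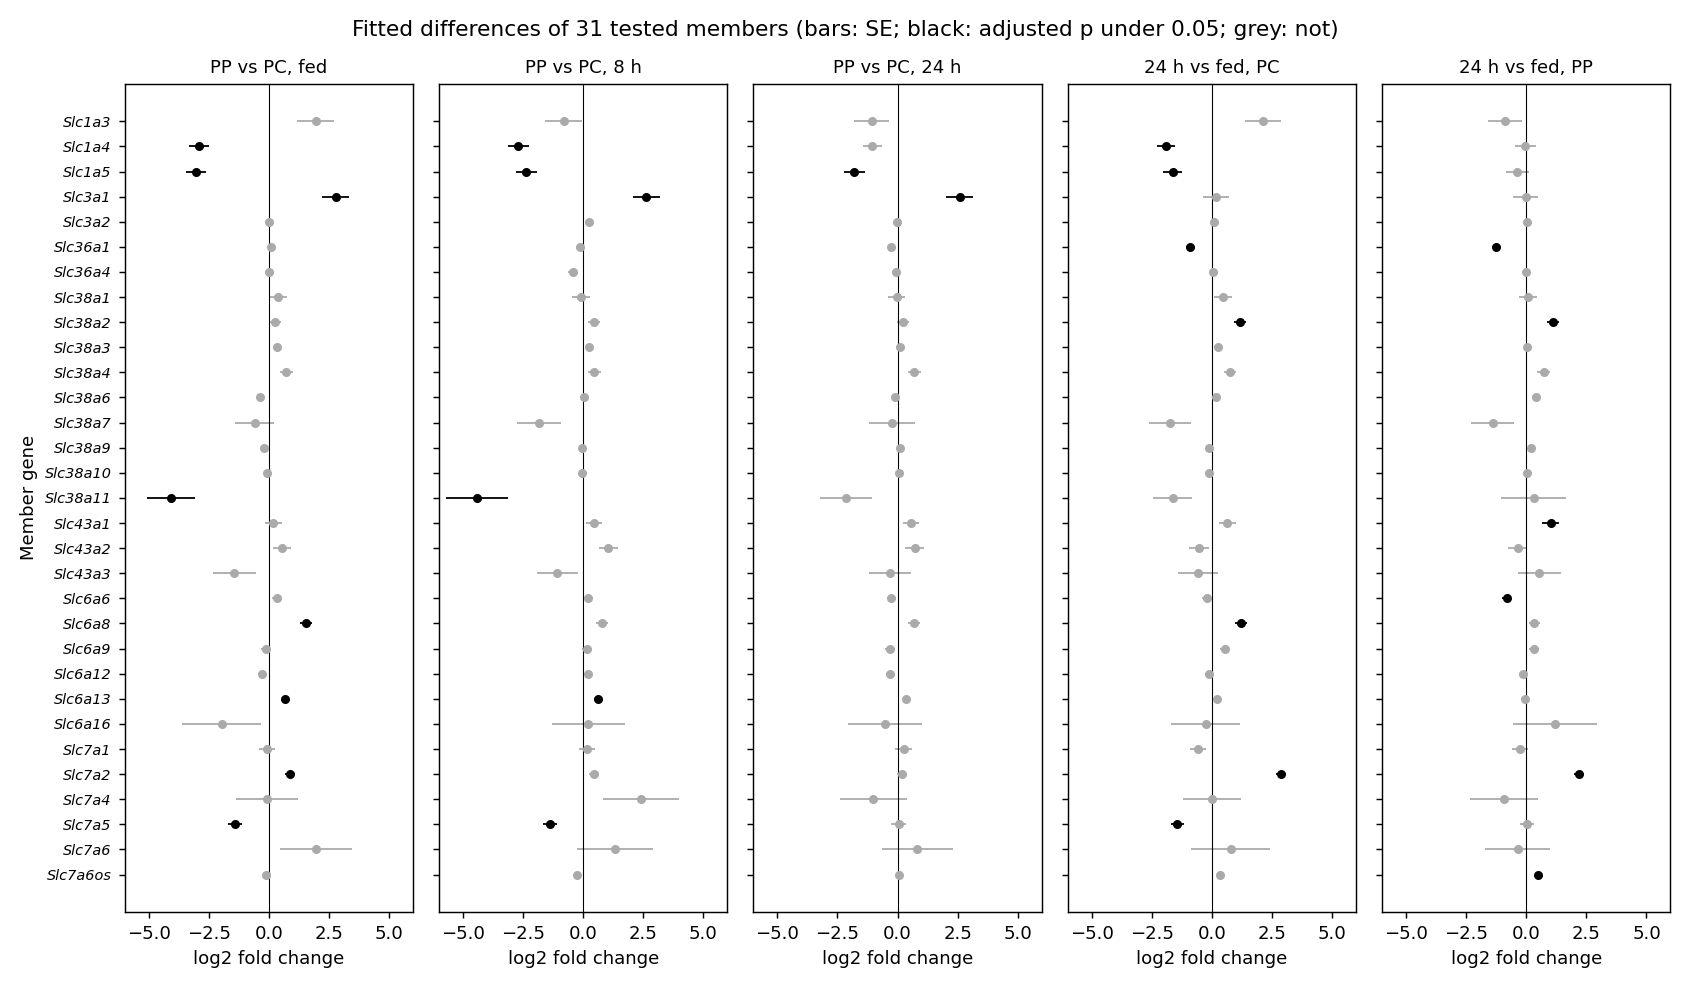
Log2 fold change (points) with its SE (bars) for 31 of the 32 tested members: periportal against pericentral (PP vs PC) in the fed state, at 8 h and at 24 h, and 24 h against fed in each zone. Black points passed an adjusted p of 0.05, 8, 6 and 2 members in the zone panels and 7 and 6 in the fasting panels.

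Slc3a1 (ENSMUSG00000024131; GRCm38 chromosome 17, 85028376 to 85064236, plus strand) encodes the heavy chain that carries the cystine and dibasic amino acid transporter to the membrane. Fed pericentral libraries had 7.74, 5.47 and 24.0 CPM and fed periportal libraries 79.5, 84.8 and 90.8 CPM. After 8 h they had 37.2, 15.7 and 12.3 CPM against 100.3, 197 and 106 CPM, and after 24 h 12.5, 20.4 and 8.95 CPM against 60.9, 78.2 and 112 CPM. In each state every periportal library was above every pericentral one. The log2 excess on the periportal side was 2.78 before fasting (SE 0.56, adjusted p = 0.00736), then 2.63 after 8 h (SE 0.56, adjusted p = 0.0106) and 2.58 after 24 h (SE 0.56, adjusted p = 0.0183). Averaged over states it was 2.66 (SE 0.32, adjusted p = 4.65e-05), or 6.33-fold. Fasting did not change it by the test in either zone (24 h log2 changes 0.18, SE 0.55, and −0.02, SE 0.52). Each single-state call was lost in 1 to 3 of 24 alternative settings, with the log2 difference between 2.25 and 3.68, and the averaged call was kept in all 23 that could be fitted. The libraries whose loss ended a call were 8 h pericentral replicates 2 and 3, 24 h pericentral replicates 1 and 3 and 24 h periportal replicate 3.

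A known light chain partner of Slc3a1 in the kidney, Slc7a9, had at most 2 counts in any library. The other heavy chain, Slc3a2, had 31.4 to 38.2 CPM as group means in every zone and state and no call, with an averaged zone difference of 0.08 (SE 0.06). Slc3a1 shares 601 of its 2271 exon bases with Prepl on the opposite strand. Prepl was itself higher on the periportal side, with 26.5 CPM in fed pericentral and 39.6 CPM in fed periportal hepatocytes (log2 0.58, SE 0.14, adjusted p = 0.0166), a smaller difference than that of Slc3a1. How reads of the shared bases were assigned is not given in the sources used here.

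The stretch before the RefSeq start of Slc3a1, the member with the largest averaged periportal excess, lies at chr17:85028097-85028350 (GRCm38.p6, plus strand). It is cut in the same way around the RefSeq start. Like that of Slc36a1, it ends before the GENCODE start of the gene.
Slc3a1: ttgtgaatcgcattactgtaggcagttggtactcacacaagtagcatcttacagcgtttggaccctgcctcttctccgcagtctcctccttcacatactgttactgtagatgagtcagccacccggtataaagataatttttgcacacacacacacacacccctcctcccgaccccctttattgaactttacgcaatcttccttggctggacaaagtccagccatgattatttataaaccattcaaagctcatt
It holds none of the 3 motifs. Its 45.6% of G and C and 6 CG pairs lie near the lower quartile (45.2%) and at the median (6 pairs) of all promoters.

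**Figure D4:**
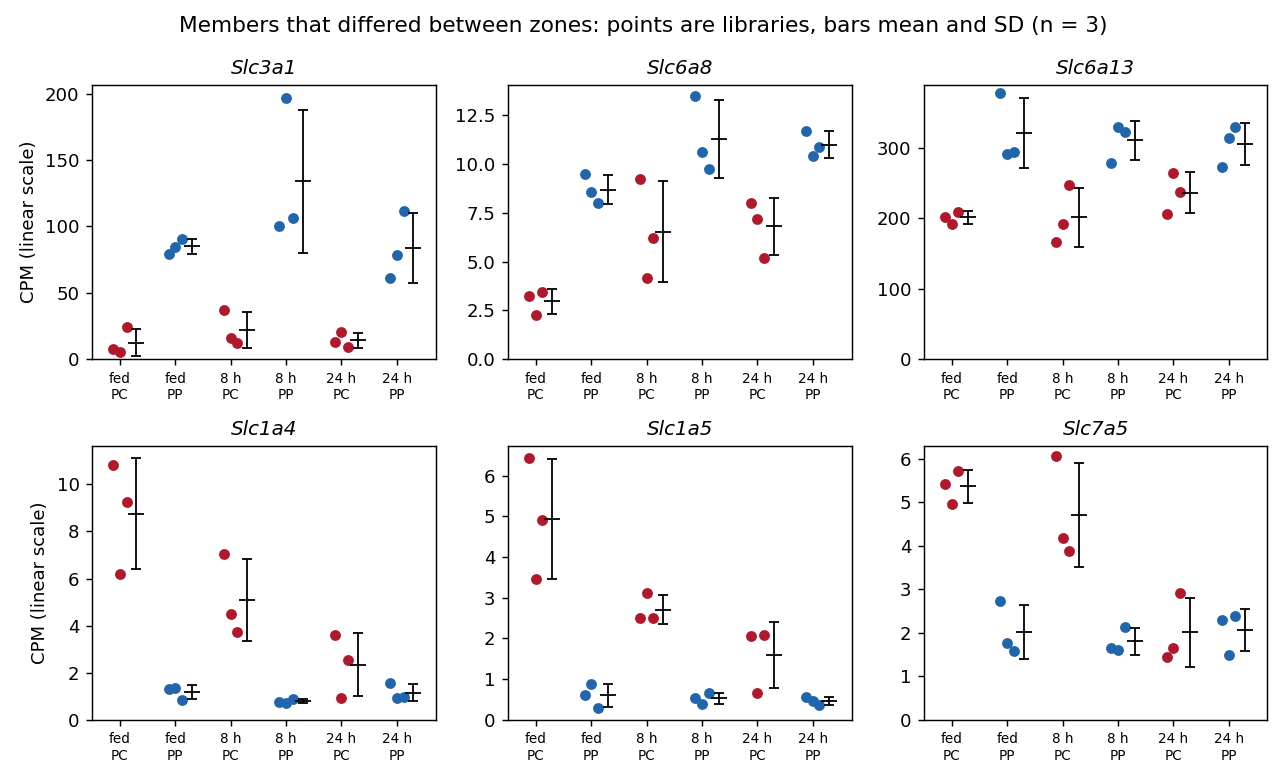
CPM (linear axes) of 6 members that differed between zones in at least 1 state; points are libraries (red pericentral, blue periportal), with mean and SD of 3 libraries. Slc3a1, Slc6a8 and Slc6a13 are higher on the periportal side, and Slc1a4, Slc1a5 and Slc7a5 are higher on the pericentral side in the fed state and fall there towards the periportal level by 24 h.

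The members that were higher on the pericentral side were of low level, at most 10.8 CPM in any library, and their values in each library are given although their means did not reach the 10 CPM set for this. Slc1a4 (ENSMUSG00000020142) and Slc1a5 (ENSMUSG00000001918) exchange neutral amino acids, Slc1a5 mainly glutamine, and Slc7a5 (ENSMUSG00000040010) is the light chain that exchanges large neutral amino acids such as leucine. Slc1a4 had 10.8, 6.18 and 9.27 CPM in fed pericentral and 1.32, 1.36 and 0.845 CPM in fed periportal libraries (log2 −2.90, SE 0.40, adjusted p = 0.000204). After 8 h it had 7.05, 4.51 and 3.71 CPM against 0.767, 0.711 and 0.885 CPM (−2.69, SE 0.42, adjusted p = 0.000754). The zones were 7.45-fold and 6.43-fold apart and did not overlap in either state. After 24 h the pericentral libraries had 3.59, 0.919 and 2.52 CPM and the periportal ones 1.56, 0.914 and 0.966 CPM, which overlapped through pericentral replicate 2 (−1.04, SE 0.41, adjusted p = 0.198; without that library −1.43, adjusted p = 0.0256).

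Slc1a5 had 6.43, 3.47 and 4.91 CPM in fed pericentral and 0.619, 0.879 and 0.294 CPM in fed periportal libraries (log2 −3.04, SE 0.42, adjusted p = 0.000204). After 8 h it had 2.50, 3.12 and 2.51 CPM against 0.525, 0.400 and 0.652 CPM (−2.36, SE 0.43, adjusted p = 0.00243), and after 24 h 2.07, 0.662 and 2.08 CPM against 0.559, 0.457 and 0.368 CPM (−1.79, SE 0.45, adjusted p = 0.0308). The zones did not overlap in any state. The 24 h call was lost in 7 of 24 settings, 5 of them the loss of 1 of the 24 h libraries other than pericentral replicate 2 (adjusted p up to 0.178 over all settings). The periportal counts behind these values were 8 to 22 per library.

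Slc7a5 had 5.43, 4.96 and 5.72 CPM in fed pericentral and 2.72, 1.76 and 1.58 CPM in fed periportal libraries (log2 −1.41, SE 0.28, adjusted p = 0.00457), and 6.06, 4.19 and 3.87 CPM against 1.66, 1.60 and 2.14 CPM after 8 h (−1.39, SE 0.29, adjusted p = 0.0065). After 24 h it had 1.45, 1.65 and 2.92 CPM against 2.29, 1.50 and 2.39 CPM, with overlap and no difference called (0.05, SE 0.30, adjusted p = 0.961). The zones did not overlap in the fed state or at 8 h. Slc38a11 was called lower on the periportal side in fed mice and at 8 h, with 27, 30 and 19 counts in fed pericentral and 0, 2 and 2 counts in fed periportal libraries. After 8 h it had 18, 1 and 12 against 0, 0 and 1 counts, which overlapped. Both calls depended on single libraries (4 of 24 and 15 of 23 settings ended them), and no fold is given at such counts. Slc38a11 passed the filter on low counts through its pericentral libraries alone (up to 1.18 CPM). No periportal library was above 0.224 CPM, so its zone calls are not independent of the filter.

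On the pericentral side all 3 of these exchangers fell with fasting. From fed to 24 h the log2 change was −1.90 (SE 0.38, adjusted p = 0.00187) for Slc1a4, −1.63 (SE 0.39, adjusted p = 0.00644) for Slc1a5 and −1.43 (SE 0.29, adjusted p = 0.00191) for Slc7a5, with no overlap between the states. Without pericentral 24 h replicate 2 the changes were −1.51 (adjusted p = 0.00489), −1.25 (adjusted p = 0.024) and −1.31 (adjusted p = 0.0116). On the periportal side the changes were −0.04 (SE 0.43), −0.37 (SE 0.47) and 0.03 (SE 0.29), none called. The tests of a zone difference in this change gave 1.86 for Slc1a4 (SE 0.57, adjusted p = 0.41), 1.26 for Slc1a5 (SE 0.62, adjusted p = 0.658) and 1.46 for Slc7a5 (SE 0.41, adjusted p = 0.345), none called. At 8 h the pericentral changes were −0.78, −0.87 and −0.19, also not called. The step from 8 h to 24 h was called for Slc7a5 (−1.24, SE 0.29, adjusted p = 0.0126), a call lost without 8 h pericentral replicate 1 (−1.03, adjusted p = 0.0668) or 24 h pericentral replicate 2 (−1.12, adjusted p = 0.0552). This call was also lost when only the groups compared were fitted (−1.23).

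Zone markers moved on the pericentral side over the same interval. From fed to 24 h, 6 of 8 periportal markers rose there (Cyp2f2, Hal, Gls2, Sds, Pck1 and Hsd17b13). Of these, Sds and Pck1 were also called higher at 24 h on the periportal side. On the pericentral side 1 of 8 pericentral markers fell (Lgr5, group means 7.20 and 3.01 CPM). The share of all genes called in that pericentral contrast was 21.8%. The part of these marker changes in the fall of the 3 exchangers was not tested. Over all 3 contrasts of zone difference no tested member was called by edgeR, DESeq2 or limma-voom. At an unadjusted p under 0.05, edgeR gave 3 members for the 8 h change, 5 for the 24 h change and 3 for the step from 8 h to 24 h. Of all genes tested, 0%, 0.016% and 0% were called in these contrasts.

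Slc1a4 was the only tested member with an ATF4 composite element in its RefSeq promoter window, of 22 tested members with such a window. Its stretch lies at chr11:20332710-20332963 (GRCm38.p6, minus strand), with the match in capitals.
Slc1a4: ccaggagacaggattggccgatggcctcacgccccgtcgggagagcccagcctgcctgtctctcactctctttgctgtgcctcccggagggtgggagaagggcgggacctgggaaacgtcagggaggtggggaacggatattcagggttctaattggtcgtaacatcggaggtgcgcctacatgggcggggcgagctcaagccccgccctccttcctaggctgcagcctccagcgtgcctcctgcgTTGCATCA
The match TTGCATCA is TGATGNAA read on the other strand, begins 4 bases before the start and ends with the last base printed. The element is found in 3.97% of all 300-base windows. TGACGTCA, found in 1.79% of windows, occurred among tested members in Slc38a6 alone, 121 bases before the start, and GTAAACA (3.65% of windows) in none. The tested members without a RefSeq promoter window, which could not be searched, included Slc7a2, Slc1a5, Slc38a3, Slc6a6, Slc6a8 and Slc7a5. A match of letters is a description of the sequence and not a binding site.

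The remaining called members were of low level. Slc43a1, a carrier of large neutral amino acids, had 4.83, 3.64 and 2.24 CPM in fed periportal and 8.89, 6.82 and 6.07 CPM in 24 h periportal libraries. The groups did not overlap, and its change of 1.02 (SE 0.35, adjusted p = 0.0489) was lost in 15 of 24 settings. Slc43a2, of the same substrates, had group means of 0.805 to 1.45 CPM in pericentral and 1.64 to 2.11 CPM in periportal hepatocytes and was called by zone only when averaged over states (log2 0.77, SE 0.23, adjusted p = 0.0235), a call lost without fed pericentral replicate 2, 8 h periportal replicate 3 or 24 h periportal replicate 3. Slc43a3 had group means of 0.830 to 3.27 CPM and no call, with an averaged zone difference of −0.94 (adjusted p = 0.22). Without periportal 8 h replicate 3 that difference was −1.60 (adjusted p = 0.0146). Its value in periportal 8 h replicate 3 was 3.91 CPM, against 0.162 and 0.622 CPM in the other libraries of that group. The endothelial marker sum in replicate 3 was 44.2 CPM. Slc43a3 was highest in pericentral 8 h replicate 2 (4.09 CPM), where that sum was 7.58 CPM. The part of endothelial RNA was not tested.

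Slc7a6os (ENSMUSG00000033106), 2011 bases from Slc7a6 on chromosome 8 and on the other strand, had 11.6, 9.14 and 10 CPM in fed pericentral, 15.0, 14.1 and 12.4 CPM in 8 h and 13.0, 13.5 and 12.1 CPM in 24 h pericentral libraries. In periportal libraries it had 9.37, 9.35 and 9.40 CPM fed, then 12.6, 12.0 and 10.5 CPM (8 h) and 14.1, 14.7 and 11.3 CPM (24 h). It rose at 8 h in pericentral (log2 0.43, SE 0.12, adjusted p = 0.0268) and at 24 h in periportal hepatocytes (0.51, SE 0.12, adjusted p = 0.00862), without overlap. The 8 h call was lost without fed pericentral replicate 2 or 3 or 8 h pericentral replicate 1 or 2, and when only the groups compared were fitted (0.44). The transporter gene Slc7a6 beside it stayed below 1 CPM in every library. The glutamate carrier Slc1a3 (group means 0.0901 to 0.410 CPM) and Slc7a4 (0.0956 to 0.539 CPM) were not called.

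Amino acid carriers outside these families were taken from a list of 9 genes, of which 8 were in the table and 5 were tested. Slc16a10, a carrier of aromatic amino acids, was higher on the pericentral side in every state, with 169 CPM against 51.5 CPM in fed mice (log2 −1.71, SE 0.21, adjusted p = 0.000108), −1.85 at 8 h (adjusted p = 8.95e-05) and −1.27 at 24 h (adjusted p = 0.00243). Slc15a4, a lysosomal carrier of peptides and histidine, rose at 24 h in both zones (0.95, adjusted p = 0.00146, and 0.77, adjusted p = 0.00684), while Mfsd12, a lysosomal cysteine carrier, fell on the pericentral side (−1.03, adjusted p = 0.00135) and not by the test on the periportal side (−0.53, adjusted p = 0.0733). The accessory protein Cltrn, a partner of Slc6a19, was not tested.

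ATF4 is a transcription factor of the amino acid response, and 14 genes of this pathway were all tested. At 24 h on the pericentral side 4 rose (Trib3, Chac1, Sesn2 and Eif4ebp1) and 3 fell (Atf4, Ddit3 and Aars), with a median of −0.31 against 0.01 for all genes and with 21.8% of all genes called. On the periportal side 3 rose (Sesn2, Ddit4 and Eif4ebp1) and 1 fell (Aars), with a median of −0.06 and with 19.6% of all genes called. Sesn2, a leucine sensor, rose by 1.91 on the pericentral side (SE 0.21, adjusted p = 1.15e-05) and by 2.03 on the periportal side (SE 0.20, adjusted p = 7.94e-06). Atf4 itself changed by −0.49 (SE 0.14, adjusted p = 0.0198) on the pericentral side and by −0.41 (SE 0.14, adjusted p = 0.0518) on the periportal side. Asns, asparagine synthetase, was lower on the periportal side in fed mice (−2.79, SE 0.66, adjusted p = 0.0182).

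Of 21 enzymes of amino acid breakdown, all tested, 10 rose and none fell at 24 h on the pericentral side, with a median of 0.41, and 6 rose and none fell on the periportal side, also with a median of 0.41. The background in these contrasts was 21.8% and 19.6% of all genes. Arg1, which splits arginine in the urea cycle, rose by 0.91 in pericentral hepatocytes (SE 0.18, adjusted p = 0.00216) and by 0.72 in periportal hepatocytes (SE 0.18, adjusted p = 0.0109). Got1, the cytosolic aspartate aminotransferase, rose by 2.70 in pericentral hepatocytes (SE 0.42, adjusted p = 0.000462) and by 2.26 in periportal hepatocytes (SE 0.41, adjusted p = 0.00165). By zone in fed mice 6 of these enzymes were higher on the periportal side (Hal, Sds, Sdsl, Gls2, Gldc and Arg1). On the pericentral side 3 were higher (Hpd, Oat and Prodh). The share of all genes called in this contrast was 8.01%. Hal, Sds, Gls2 and Oat are also among the zone markers, which were chosen as zoned genes.

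Genes by which mTORC1, the growth kinase complex at the lysosome, senses amino acids were listed as 16, of which 14 were tested. Flcn and Fnip1, partners in a complex acting on the Rag GTPases, rose in both zones at 24 h, with log2 changes for Flcn of 0.83 and 0.65 (SE 0.17 for both, adjusted p = 0.00274 and 0.0149). Those of Fnip1 were 1.50 and 0.94 (SE 0.19 and 0.18, adjusted p = 4.07e-05 and 0.00189). In all, 3 rose and 2 fell on the pericentral side and 2 rose and 1 fell on the periportal side, with medians of −0.05 and −0.06, against 21.8% and 19.6% of all genes called. Fnip2 fell on the periportal side by 0.89 on the log2 scale (SE 0.18, adjusted p = 0.00253). By zone, Castor2 was lower on the periportal side at 8 h (−1.17, SE 0.30, adjusted p = 0.022) and averaged over states (−0.56, SE 0.17, adjusted p = 0.0286). No gene of this list was called by zone in fed mice or at 24 h.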

How the data were processed

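RNA was sequenced from hepatocytes of 18 libraries. The values are unnormalised estimated counts for each Ensembl gene, deposited as 1 table; 67.5% to 70.5% of values were whole. The submitters' processing notes list kallisto 0.46.0 and the build mm10, without a role. The annotation, strand and summary to genes are not given in the sources used here. Libraries were made with a NEBNext Ultra RNA kit, per the labels' protocols. Of the identifiers, 27566 had a symbol and 464 did not. Counts were rounded and tested with the quasi-likelihood test of edgeR 4.0.16 (R 4.3.3; robust, TMM, filterByExpr) in 1 fit of 6 groups with 13 contrasts. P-values were adjusted by Benjamini-Hochberg over all 12477 genes tested, with a threshold of 0.05, after the code was tested on simulated data. SE is the size of the log2 fold change divided by the square root of F. CPM used TMM-scaled totals. Members with a mean of at least 10 CPM in a group and a call are given for every library, the others by group means unless said otherwise. The labels do not say whether equal replicate numbers share a mouse. At 24 h all 3 pairs of equal number across zones correlated in their deviations from group means (r = 0.123, 0.167 and 0.157), so they were treated as paired there in an added fit. Members and lists were chosen with earlier results of these data known. Alternatives were DESeq2 1.42.0 size factors and test, limma 3.58.1 voom, no low-count filter, the replicate number as a block, only the groups compared, and leaving out each library. Results of 1 tested member, without a call, and of 1 listed gene are not reported here. Gene positions are from GENCODE M21 and sequences from RefSeq GRCm38.p6, the same build as mm10.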

Additional observations from a re-analysis of the deposited data

How the results depend on the processing

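Of the 10 comparisons with a call, the counts at 8 h by zone, at 24 h by zone, at 8 h in periportal hepatocytes and from 8 h to 24 h in both zones moved by over 1.5 times under at least 1 setting. Over all pairs of member, contrast and setting, most of them without a call, 100 lost a call, 68 gained one and 0 reversed. When only the groups compared were fitted, zone calls were 3 in place of 6 at 8 h and 1 in place of 2 at 24 h, and pericentral calls from 8 h to 24 h were 2 in place of 4. With limma-voom the 24 h zone count was 1. With DESeq2 the periportal count at 8 h was 6 in place of 3, and with the replicate block it was also 6. The replicate block changed no other count by over 1.5 times. It gained the calls of Slc38a4 by zone in fed mice (0.74, adjusted p = 0.0395) and at 24 h in both zones (0.71, adjusted p = 0.0232 and 0.0254), of Slc6a8 by zone at 8 h (0.81, adjusted p = 0.0189) and of Slc38a2 (0.75, adjusted p = 0.0218), Slc36a1 (−0.51, adjusted p = 0.0468) and Slc6a6 (−0.59, adjusted p = 0.0207) at 8 h in periportal hepatocytes. It also gained Slc7a6os at 24 h (0.33, adjusted p = 0.0398) and Slc1a4 from 8 h to 24 h (−1.18, adjusted p = 0.0274), both pericentral, and lost Slc38a11 by zone at 8 h (adjusted p = 0.0582) and Slc38a3 from 8 h to 24 h in periportal hepatocytes (adjusted p = 0.0505). In the fed state and at 8 h, libraries of the same number in the other zone correlated with r of −0.021 to 0.066 in their deviations from group means, so a shared number gave no sign of pairing there. A block within the 24 h libraries, added after seeing the data, left 2 members called by zone at 24 h and changed no call.

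Leaving out each library in turn gave zone counts of 6 to 8 in fed mice, 4 to 6 at 8 h, 0 to 3 at 24 h and 9 to 11 averaged over states. Fasting counts were 2 to 3 (pericentral) and 1 to 5 (periportal) at 8 h, 7 to 9 and 4 to 7 at 24 h, and 2 to 5 and 1 to 3 from 8 h to 24 h. The periportal 8 h count was 1 without fed periportal replicate 1 or 8 h periportal replicate 3 and 5 without 8 h periportal replicate 1. The pericentral count from 8 h to 24 h was 2 without 8 h replicate 1 or 24 h replicate 2, and the periportal one was 1 without 24 h replicate 3. The counts of zone differences were 0 to 0. The cause was not tested. The fit of only the groups compared was not run for the contrast averaged over states, where it would hold the same groups. Groups of 3 libraries, and counts under about 30 for the low members, limit what could be detected.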
